A study of Mus musculus with 2 samples.

Results

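Sox proteins are transcription factors that share an HMG box, a DNA-binding domain related to that of Sry. They bind similar short DNA sequences, and members of 1 group can often stand in for one another, whereas the groups differ in the tissues that use them. Sox9, the gene deleted in these cells, belongs to the SoxE group together with Sox8 and Sox10. The genes described here are the other Sox factors Sox2, Sox4, Sox5, Sox6, Sox7, Sox8, Sox10, Sox11, Sox15 and Sox21. They were chosen by name, as all non-control spots of both arrays annotated with 1 of these 10 symbols, which gave 26 probes, 1 to 6 per gene, of 41174 probes and 27827 gene names on the array. The comparison asks which of them were detected in prostaspheres and whether any was higher after loss of Sox9.

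RNA came from prostaspheres, spheres of prostate epithelial cells grown in Matrigel, on 2 Agilent arrays that each compared 2 RNAs. According to the labels the cells were from the urogenital sinus epithelium of C57/Bl6J embryos at 16 dpc, grown for 6 days with DHT and then for 6 days with TAM (5 µM) or vehicle, while the study's methods describe prostasphere culture from adult prostates. The genotype array set wild-type cells with TAM (Cy5) against ER-Sox9flox/flox cells with TAM (Cy3), and the treatment array set ER-Sox9flox/flox cells with vehicle (Cy5) against ER-Sox9flox/flox cells with TAM (Cy3). In these cells the Sox9 alleles are floxed, and a Cre recombinase switched on by TAM is expressed from the ubiquitous Rosa26 locus, so deletion is not limited to 1 cell type. The genotype label of the vehicle RNA reads Sox9 null, and the source names call the Cy5 RNA SOX9 and the Cy3 RNA Ctrl. Titles, treatments and dyes were used instead. The labels write the line as ERCre+/+Sox9flox/flox. Both RNAs labeled with Cy5 are called Sox9-expressing and both labeled with Cy3 Sox9-deleted, and every log2 ratio is Sox9-expressing over Sox9-deleted RNA. No array had the dyes swapped, so a dye bias of a probe cannot be told apart from loss of Sox9. The RNAs of the genotype array also differed in mouse line, and those of the treatment array in exposure to TAM. Nothing in the labels says how many animals or cultures gave an RNA. The only replication is between the 2 arrays (n = 2), and limma p-values also draw a probe's error from the spread of all probes. In bulk RNA, fewer cells of a type and less RNA per cell cannot be told apart.

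Sox9 itself was read by 3 probes. The probe at transcript position 2082 had a log2 ratio of 2.69 on the genotype array and 2.37 on the treatment array (limma adjusted p = 0.0627), and the one at 786 had 1.18 and 1.27 (adjusted p = 0.0856). The probe at 3883 went the other way, at -0.997 and -1.22 (adjusted p = 0.0921). In wild-type RNA its signal minus local background was 6.96 scanner units, not well above background. In vehicle RNA it was 35.3, while the probe at 2082 had 2199 and 1476 in these RNAs. The probe at 3883 thus read little Sox9 where Sox9 was expressed, and its ratios do not show a rise of Sox9 after deletion. The source of its signal in Sox9-deleted RNA was not tested. Prostate epithelial markers (Epcam, Cdh1, Krt5, Krt14, Krt8, Krt18, Trp63 and Itga6) were well above background in all 4 RNAs, 8 of 8. Of these, 5 were higher and 2 lower with Sox9 on each array (33.8% and 33.7% of all tested genes). The highest mean was that of Krt5, a basal cytokeratin, at 2.13 and 1.91. The 2 lower were Cdh1, at -0.31 and -0.32, and Krt18, at -0.28 and -1.01. Krt8 had 0.01 and -0.74. The part of these epithelial genes in the Sox values was not tested.

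Sox11 and Sox6 gave the largest ratios among the 10 genes, so the bases of their probes are shown. The first Sox11 probe, at position 568, lies in the coding sequence of the HMG box, where Sox genes resemble each other. It is set beside the Sox9 probe of the same stretch, with capitals where the base equals the aligned Sox11 base.
Sox11 (568): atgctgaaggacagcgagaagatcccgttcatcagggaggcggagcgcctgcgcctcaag
Sox9 (786): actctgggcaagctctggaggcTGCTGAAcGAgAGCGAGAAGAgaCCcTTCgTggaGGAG
Over an overlap of 39 bases, 29 were identical between the Sox11 and Sox9 probes, with a longest identical run of 10 bases. The other 5 Sox11 probes lie farther along the transcript, and their longest identical run with any Sox9 probe was 7 or 8 bases. Their first 30 bases are given because all of them had ratios of the same sign as the first.
Sox11 (1907): cagagggacccttttggcggcacaactgtt
Sox11 (2135): aatgcagtctgtacaaacgcttacaaaaat
Sox11 (4661): gtgtgcttaaagtgtgctttgcaaatacat
Sox11 (7317): catttgttcaaaagaccaataaaaatcgtg
Sox11 (7839): aaccattctgtattgaaactcttgctataa
The first 30 bases of the 3 Sox6 probes that could be tested are given as well, since Sox6 was near background in Sox9-deleted RNA.
Sox6 (2533): gctgggaacgacatgattaatggagaggat
Sox6 (4645): gctctccataagctgtttaaggtactgcta
Sox6 (7607): ttgtatttgccatgtacaattctgaattac
In the array annotation (mm9) the Sox11 probes lie on the minus strand between chr12:28019541-28019600 and chr12:28026950-28027009. The 3 Sox6 probes lie on the minus strand, at chr7:122620492-122620551, chr7:122618380-122618439 and chr7:122615418-122615477 in the order given. Exon and UTR annotation of that build was not used here.

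Of the 10 Sox genes, 6 (Sox2, Sox4, Sox7, Sox11, Sox15 and Sox21) had a probe that the scanner software marked as well above background in all 4 RNAs, against 50.5% of all genes on the array. Sox6 and Sox10 were above background in some RNAs, and Sox5 and Sox8 in none. Of the 26 probes, 13 were well above background in all 4 RNAs (51.5% of all probes) and 8 in none. Brightness is given as net brightness, the mean signal of a spot minus its local background in scanner units. Over all probes its median was 33.2 and 32.4 in Cy5 and 22.6 and 22.9 in Cy3, so raw Cy5 and Cy3 values do not compare RNAs, and different probes do not compare genes. The comparison rests on the log2 ratios after background correction and loess normalization, in which an added constant of 50 makes the ratios of dim probes too small.

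**Figure D1:**
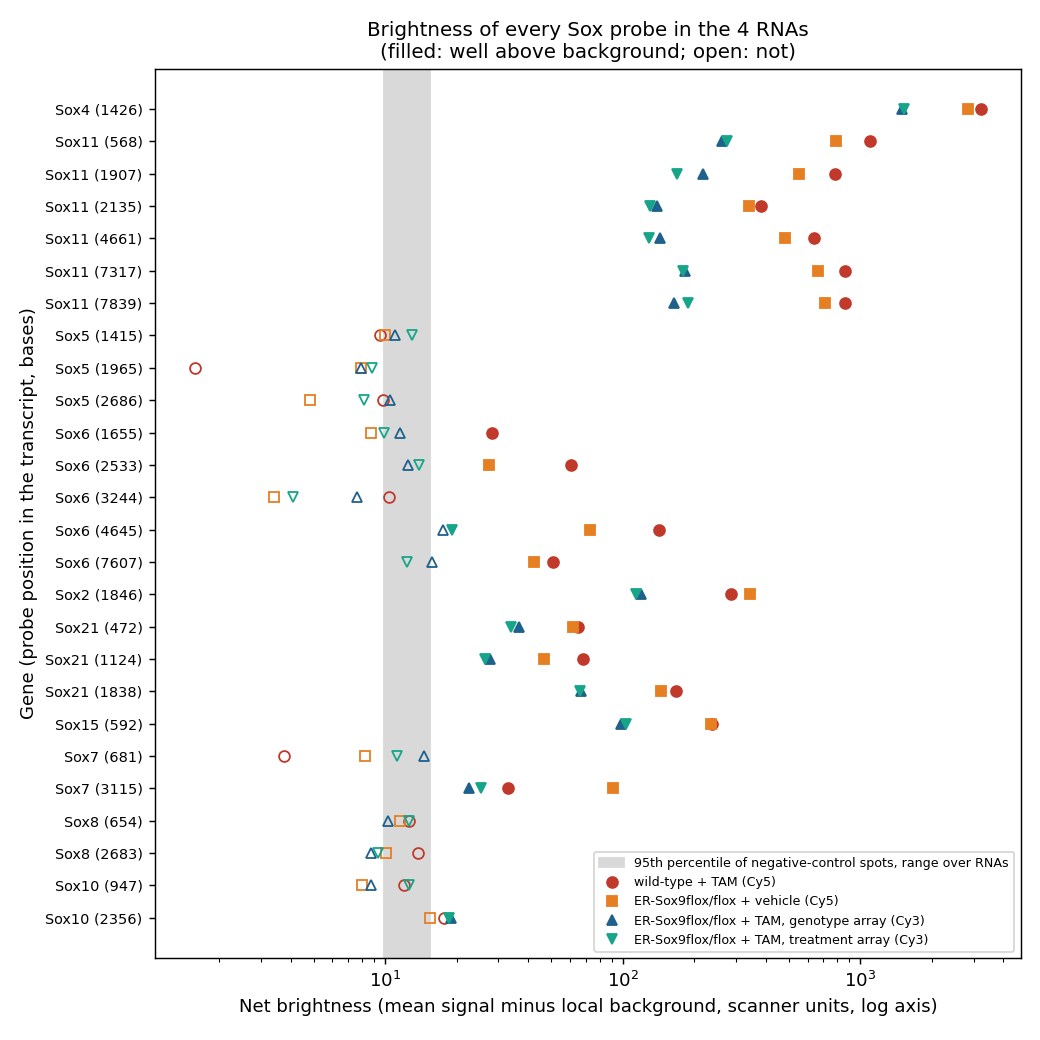
Net brightness (scanner units, log axis) of each of the 26 probes of the 10 Sox genes in the 4 RNAs, with the transcript position in brackets, filled where the spot was well above background and open where not. The grey band is the range over the RNAs of the 95th percentile of negative-control spots, from 9.90 to 15.4. The Sox4 and Sox11 probes lie well to the right of the band, and those of Sox5 and Sox8 lie within it or to its left.

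No Sox gene passed the test as higher in Sox9-deleted RNA, and the largest ratios, those of Sox11 and Sox6, lay toward Sox9-expressing RNA. Of 17 probes tested (8 genes), 0 passed an adjusted p of 0.05 with limma, against 2 of all 22731 tested probes (0.0088%). As genes this was 0 of 8, against 0.0132% of all tested genes. The deleted gene did not pass either, since the lowest adjusted p of a Sox9 probe was 0.0627 in the limma fit. A lack of calls therefore does not show a lack of change. On both arrays, 14 of the 17 probes were higher with Sox9 (34.5% of all tested probes) and 1 was lower (32.6%). At an unadjusted p under 0.05, 11 of the 17 were higher in Sox9-expressing RNA, where 9.48% of all tested probes were, and 0 were higher in Sox9-deleted RNA, where 8.06% were (17.5% in either direction). The 3 Sox6 probes and the Sox10 probe entered the test through 1 dye only, that of the RNAs in which they were brighter, so their direction was favoured by the filter. With both dyes required above background, 8 of 13 Sox probes had an unadjusted p under 0.05, against 18.2% of all probes, and Sox6 and Sox10 were not tested. The 11 probes come from 4 genes (Sox11, Sox6, Sox2 and Sox15), since probes of 1 gene read the same transcript. With each gene read from its brightest tested probe, those 4 of 8 genes passed that unadjusted threshold, against 10.5% of 15131 tested genes (19.5% in either direction). On both arrays, 5 of 8 genes (Sox2, Sox6, Sox11, Sox15 and Sox21) were higher in Sox9-expressing RNA (33.8% of all tested genes; 4 of 6, without Sox6, with both dyes required), and 1, Sox10, was higher in Sox9-deleted RNA (33.7%). Sox4 and Sox7 had unlike signs on the 2 arrays. None of the 8 reached 2-fold on both arrays, which 0.535% of all tested genes did. The median log2 ratio of the 8 genes was 0.24, against 0.00 over all tested genes.

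**Figure D2:**
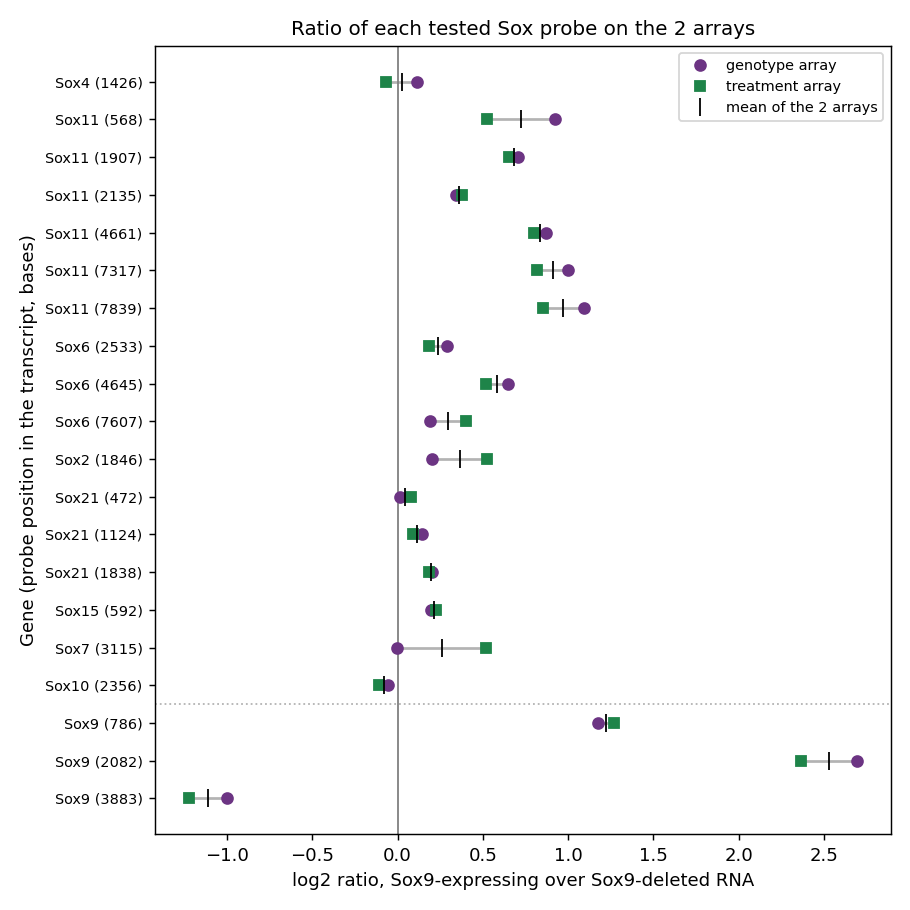
Log2 ratio (Sox9-expressing over Sox9-deleted RNA) of the 17 tested Sox probes and, below the dotted line, the 3 Sox9 probes. Circles are the genotype array, squares the treatment array and black ticks their mean. All 6 Sox11 probes lie right of 0 on both arrays, from 0.35 to 1.09, while Sox10 lies just left of it.

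Sox11 and Sox4 form the SoxC group with Sox12 and are best known from embryonic progenitors, neurons and mesenchyme. The brightest Sox11 probe, at 568, had a net brightness of 1096 in the wild-type RNA and 790.5 in the vehicle RNA (Cy5), and of 261 and 276 in the Sox9-deleted RNAs of the genotype and treatment array (Cy3). Both Sox9-expressing RNAs lay above both Sox9-deleted RNAs in these raw units. The same held for 16 of the 17 tested Sox probes, all but that of Sox10, and for 89.1% of all tested probes, so it does not compare RNAs. After normalization its log2 ratio was 0.92 on the genotype array and 0.52 on the treatment array, a mean of 0.72 ± 0.28 (SD over 2 arrays, adjusted p = 0.153 by limma), or 1.65-fold. The 95% interval of this mean ran from 0.36 to 1.08.

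The other 5 Sox11 probes were all higher with Sox9 on each array too. The probe at 7839 had a net brightness of 859.8 and 709.9 in wild-type and vehicle RNA and of 165 and 188 in the Sox9-deleted RNAs, and log2 ratios of 1.09 and 0.85 (mean 0.97 ± 0.17, adjusted p = 0.0954). The one at 7317 had 866 and 666 against 184 and 180.3, with log2 ratios of 1.00 and 0.82 (0.91 ± 0.13, adjusted p = 0.0944). These 2 probes at the far end of the transcript had the largest Sox11 ratios. The probe at 4661 followed at 0.87 and 0.80 (0.84 ± 0.05, adjusted p = 0.0944) and the one at 1907 at 0.71 and 0.66 (0.68 ± 0.04, adjusted p = 0.107). The smallest ratio was that of the probe at 2135, at 0.35 and 0.38 (0.36 ± 0.02, adjusted p = 0.173), whose 95% interval of 0.16 to 0.57 lay below that of the probe at 7839, 0.70 to 1.24. Over the 6 probes the mean log2 ratio was 0.82 on the genotype array and 0.67 on the treatment array (0.75 ± 0.11, SD over the arrays of the 6-probe mean). The means of single probes had an SD of 0.22, and single probes differed between the arrays with an SD of 0.02 to 0.28. On 5 of 6 probes the genotype array gave the larger ratio.

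Sox4, which like Sox11 marks many progenitor cells, was bright in all 4 RNAs. Its only probe (chr13:29044066-29044125, mm9, minus strand) had a net brightness of 3229 in wild-type and 2854 in vehicle RNA, and of 1505 and 1523 in the Sox9-deleted RNAs. These raw values stand apart by dye, but the normalized log2 ratios were 0.12 on the genotype array and -0.07 on the treatment array, a mean of 0.02 ± 0.13 (SD over 2 arrays, adjusted p = 0.903 by limma). The difference was smaller than its spread between arrays, and its 95% interval ran from -0.22 to 0.27. The third SoxC gene, Sox12, was dim, with 28.1 and 20.9 against 15.5 and 14.0, and was well above background in 3 of 4 RNAs. Its ratios were 0.06 and 0.09 (adjusted p = 0.627).

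Among markers of neurons, a cell type in which Sox11 is prominent, Dcx, Elavl3 and Snap25 were not well above background in any RNA, and 2 of 5 marker genes on the array could be tested. Stmn2, a neuronal microtubule regulator, had a net brightness of 529 and 544 in Cy5 and 77.6 and 74.1 in Cy3, and log2 ratios of 1.15 and 1.51 (mean 1.33 ± 0.25, adjusted p = 0.0921). Tubb3, a neuronal tubulin, had 0.00 and 0.43 (adjusted p = 0.456). Summed over the list, net brightness was 612 and 706 in Cy5, most of it from Stmn2, and 144 and 148 in Cy3. The part of these genes in the Sox11 values was not tested.

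Sox5 and Sox6 belong to the SoxD group, lack a transactivation domain of their own and act with Sox9 in cartilage. Sox6 had 5 probes, of which 3 could be tested. The brightest, at 4645, had a net brightness of 142 in wild-type and 72.9 in vehicle RNA, and of 17.5 and 19.2 in the Sox9-deleted RNAs. It was well above background in both Sox9-expressing RNAs and, of the Sox9-deleted ones, in that of the treatment array only. The wild-type RNA was the higher of the Cy5 RNAs. Its log2 ratios were 0.65 and 0.52, a mean of 0.58 ± 0.09 (SD over 2 arrays, adjusted p = 0.124 by limma), with a 95% interval of 0.36 to 0.81.

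The other tested Sox6 probes were well above background in Sox9-expressing RNA only, so their folds are set against signals not well above background. The probe at 2533 had a net brightness of 60.7 and 27.4 against 12.5 and 13.9. In the mean it was 1.18-fold higher in Sox9-expressing RNA (log2 ratios 0.29 and 0.18, limma adjusted p = 0.265). The 95% interval of its mean log2 ratio ran from 0.02 to 0.46. The probe at 7607 had 51.1 and 42.5 against 15.7 and 12.4, and was 1.23-fold higher in the mean (log2 ratios 0.19 and 0.40, limma adjusted p = 0.244). Its interval ran from 0.04 to 0.56. All 3 tested Sox6 probes, the brightest included, entered the test through the Sox9-expressing RNAs alone. Their shared direction was thus favoured by the filter, and that of 1 probe does not bear on that of another. The remaining probes lie upstream of these on the chromosome, at chr7:122685210-122685269 (position 1655) and chr7:122683474-122683533 (position 3244). The first was well above background in the wild-type RNA only, at 28.1 against 8.71 in vehicle RNA and 11.6 and 9.91 in the Sox9-deleted RNAs, and the second in none, so neither was tested.

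Sox5 was not well above background with any of its 3 probes. Their net brightness lay between 1.58 and 12.9 over the 4 RNAs, where the 95th percentile of 153 negative-control spots was 9.90 to 15.4. By that percentile in place of the scanner software's mark, Sox5 had a probe above it in 3 of 4 RNAs and Sox8 in 2, while the other 8 genes did in all 4. The RNAs overlapped and no ratio was tested. Of 7 markers of cartilage, the classical setting of Sox5, Sox6 and Sox9 together, Col2a1 was well above background in all 4 RNAs, Acan in 2, and Chad, Comp, Hapln1 and Matn1 in none. The sum of the 7 genes was 123 and 113 in Cy5 and 122 and 125 in Cy3. Skeletal muscle, where Sox6 is also used, had a marker sum of 6467 in vehicle against 1183 in wild-type RNA (Cy5). In the Sox9-deleted RNAs (Cy3) it was 1458 and 1241. The part of these cells in the Sox6 values was not tested.

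Among the 10 genes described here, Sox2 and Sox21 belong to the SoxB group. Sox2 is an activator of stem cell and progenitor programmes that is also found in basal epithelia, and Sox21 is a repressor. Sox2 has 1 probe (chr3:34550773-34550832, mm9, plus strand), with a net brightness of 286 in wild-type and 342 in vehicle RNA and of 120 and 114 in the Sox9-deleted RNAs. The vehicle RNA was the higher of the Cy5 RNAs. Log2 ratios were 0.20 on the genotype and 0.53 on the treatment array, a mean of 0.36 ± 0.23 (SD over 2 arrays, adjusted p = 0.244 by limma) with a 95% interval of 0.05 to 0.68.

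Sox21 was well above background in all 4 RNAs with each of its 3 probes. The brightest, at 1838 (chr14:118633227-118633286, mm9, minus strand), had 168 and 145 in wild-type and vehicle RNA and 66.8 and 66.0 in the Sox9-deleted RNAs. Its log2 ratios were 0.20 and 0.18, a mean of 0.19 ± 0.01 with an adjusted p of 0.300 in the limma fit. The other 2 probes were dimmer, between 26.2 and 68.4, with means of 0.12 and 0.05 (adjusted p = 0.472 and 0.778). All 6 values were above 0, but the 95% interval of each probe included 0.

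Sox15, the only SoxG gene, is known from placenta, muscle progenitors and stratified epithelia. Its probe (chr11:69470020-69470079, mm9, plus strand) had a net brightness of 238 in wild-type and 236 in vehicle RNA and of 98.7 and 103 in the Sox9-deleted RNAs. The values lay close together within each dye. Log2 ratios were 0.20 and 0.23, a mean of 0.21 ± 0.02 (SD over 2 arrays, adjusted p = 0.279 by limma), with a 95% interval of 0.01 to 0.42. The 2 arrays differed by less than their mean.

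Sox7 belongs to the SoxF group, which acts in endothelium and in early endoderm. Its probe at 3115 (chr14:64569419-64569478, mm9, plus strand) had a net brightness of 33.0 in wild-type, 90.7 in vehicle and 22.5 and 25.3 in the Sox9-deleted RNAs. Only the vehicle RNA stood apart. The log2 ratio was 0.00 on the genotype array and 0.52 on the treatment array, a mean of 0.26 ± 0.37 (SD over 2 arrays, adjusted p = 0.447 by limma), so the spread exceeded the mean. The second probe, at 681, was not well above background in any RNA.

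The vehicle RNA was also the higher of the Cy5 RNAs in summed markers of endothelium and stroma. The 8 endothelial markers summed to a net brightness of 2021 in vehicle and 982 in wild-type RNA (Cy5), and of 711 and 918 in the Sox9-deleted RNAs (Cy3). Most of each sum was Emcn, at 1691 in vehicle and 700 in wild-type RNA. In the same order Kdr had 128 and 123, Cdh5 91.9 and 74.5, and Esam 54.1 and 28. Pecam1 and Tie1 were not above background in any RNA. Of the 4 endothelial genes tested, 0 were higher and 2 lower with Sox9 on each array (33.8% and 33.7% of all tested genes). Stromal markers, 8 of 8 tested, summed to 111988 in vehicle against 40292 in wild-type RNA (Cy5), and to 35440 and 31064 in the Sox9-deleted RNAs (Cy3). The part of these cells in the Sox7 and Sox2 values of the treatment array was not tested. The other SoxF genes differed little from background. Sox18 was well above background in the Sox9-deleted RNAs only, at 20.0 and 21.8 against 19.1 and 20.7 (log2 ratios -0.06 and -0.12, adjusted p = 0.577), and Sox17 in the Sox9-deleted RNA of the treatment array only, with 1 of 4 probes.

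Sox8 and Sox10, the genes closest to Sox9, were at or near background. The 2 Sox8 probes had a net brightness of 8.73 to 13.8 over the 4 RNAs and were well above background in none. Sox10, a factor of neural crest and glia, had 2 probes, of which the one at 947 was not detected. The probe at 2356 (chr15:78985505-78985564, mm9, minus strand) had 18.9 and 18.6 in the Sox9-deleted RNAs, where it was well above background, and 17.6 and 15.5 in wild-type and vehicle RNA, where it was not. Of the 8 tested genes Sox10 was the only one higher in Sox9-deleted RNA on both arrays, by 1.06-fold in the mean. Its log2 ratios were -0.05 and -0.11 (mean -0.08 ± 0.04, SD, n = 2, limma adjusted p = 0.607). The 95% interval, -0.29 to 0.13, included 0. Of 8 listed markers of glia and neural crest, Mbp, Erbb3 and S100b were well above background in all 4 RNAs and 3 genes, among them Foxd3 and Gfap, in none. The list summed to a net brightness of 4369 and 3749 in Cy5 and 2126 and 1970 in Cy3, and its part in the Sox10 values was not tested.

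**Figure D3:**
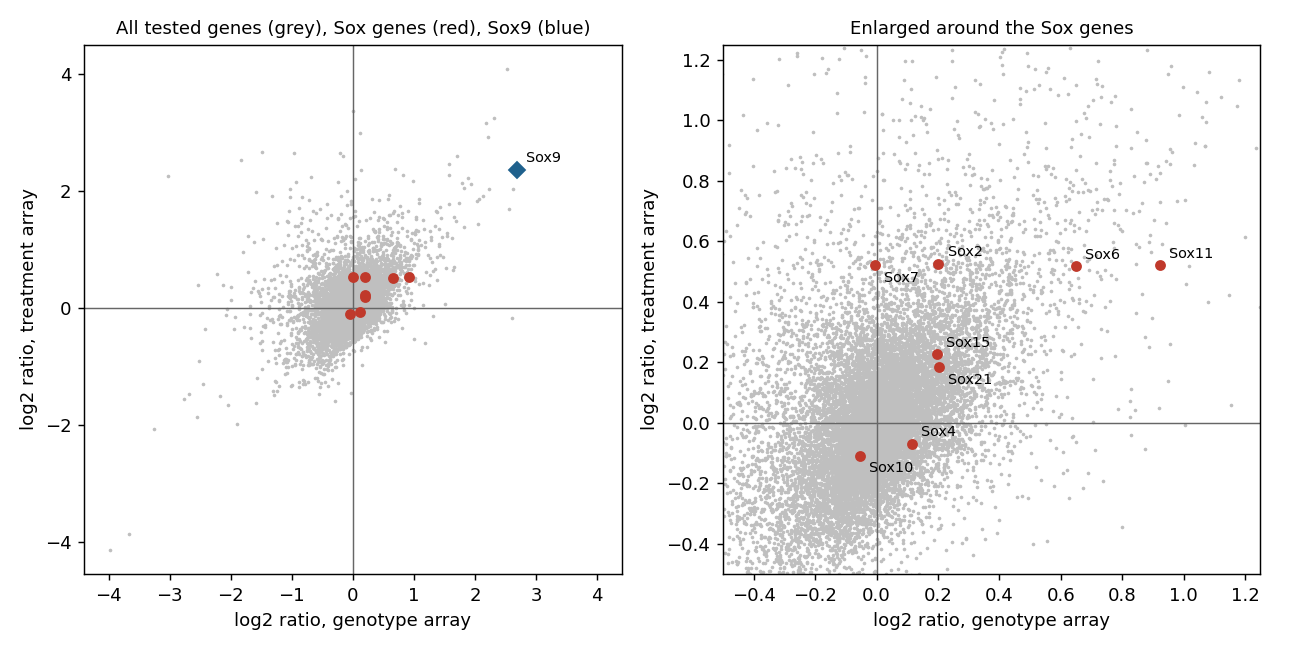
Log2 ratio of the genotype array against that of the treatment array for each tested gene, read from its brightest probe, in grey. The 8 tested Sox genes are red and Sox9 blue, and the right panel enlarges the centre and names the Sox genes. Sox11 and Sox6 lie in the upper right at 0.92 and 0.52 and at 0.65 and 0.52, and Sox9 at 2.69 and 2.37 lies far beyond them.

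In the rest of the family 2 genes were tested, Sox12 and Sox18. Of these, Sox18 was higher in Sox9-deleted RNA on both arrays, and it did not pass the test. Each entered the test through 1 dye only, Cy5 for Sox12 and Cy3 for Sox18, so its direction was favoured by the filter. Of 9 further Sox genes listed, 8 were on the array, and Sox1, Sox13, Sox14, Sox30 and Sry were not well above background in any RNA. Genes that bind Sox proteins or act with them were mostly detected, with 15 of 19 on the array tested. Of these, 4 were higher and 4 lower with Sox9 on each array (33.8% and 33.7% of all tested genes), and at an unadjusted p under 0.05 there were 2 higher and 1 lower, against 10.5% and 9.07% of all tested genes. The highest were Tcf7l2, a Wnt effector, with log2 ratios of 0.31 and 0.62 (limma adjusted p = 0.191), and Pias1, a SUMO ligase, with 0.21 and 0.28 (adjusted p = 0.241). The lowest were Lef1, also a Wnt effector, with -0.29 and -0.42 (adjusted p = 0.188), and Wwp2, a ubiquitin ligase, with -0.07 and -0.21 (adjusted p = 0.432). The median of the list was -0.04.

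Of 17 genes on the array that are known as targets of Sox factors, 10 were tested, of which 2 were higher and 5 lower with Sox9 on each array, with a median of -0.02. Over all tested genes 33.8% were higher and 33.7% lower. At an unadjusted p under 0.05 there were 1 higher and 3 lower, where 10.5% and 9.07% of all tested genes were. The highest were Tubb3, given above as a neuronal marker and known as a SoxC target, and Ezh2, a histone methyltransferase and SoxC target, with log2 ratios of 0.19 and 0.24 (limma adjusted p = 0.280). The lowest were Cldn5, an endothelial junction gene and SoxF target, with -0.42 and -0.44 (adjusted p = 0.146), and Ccnd1, a cyclin, with -0.29 and -0.41 (adjusted p = 0.189). None of these genes passed the adjusted threshold.

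**Figure D4:**
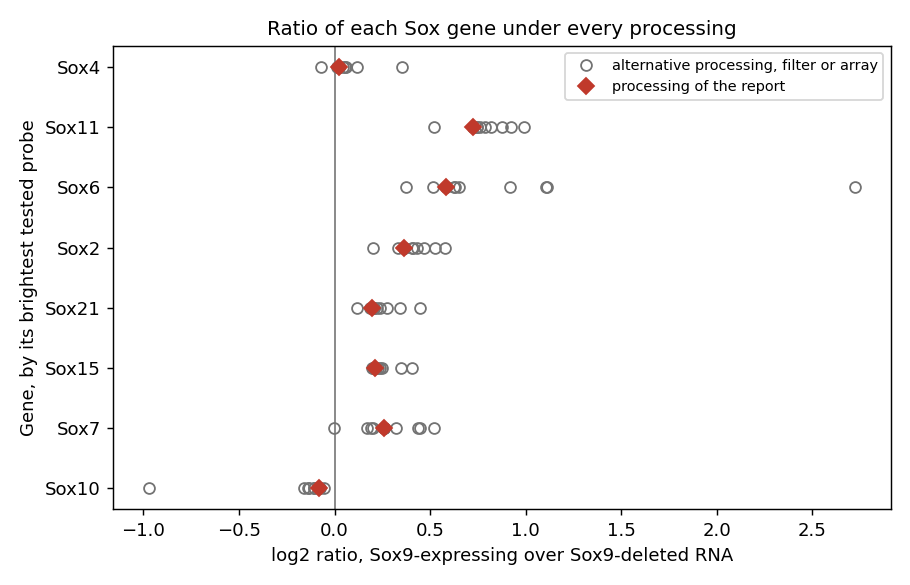
Log2 ratio (Sox9-expressing over Sox9-deleted RNA) of the 8 tested Sox genes with the processing described here (red diamonds) and with each alternative normalization, signal, offset, filter or single array (open circles). Sox11, Sox6, Sox2, Sox21 and Sox15 stay above 0 throughout, Sox10 stays below, and Sox4 and Sox7 fall on or below 0 with 1 array alone.

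The stretches upstream of the Sox genes with the largest ratios were read from RefSeq promoters (GRCm38.p6), which were given for 8 of the 10 genes as 13 windows, from 250 bases before to 50 after a start. They were searched on both strands for AACAAT and ACAAAG, core sequences of the kind Sox proteins bind, which overlap in part. Either was found in 7 of 13 windows, 5 of them among the 6 Sox6 starts, and in 27.0% of all 32851 windows of that length. For Sox11 neither occurs in its window. The 250 bases before its start, and those before the Sox6 start with the most matches (capitals), are given.
Sox11, chr12:27342719-27342968, minus strand: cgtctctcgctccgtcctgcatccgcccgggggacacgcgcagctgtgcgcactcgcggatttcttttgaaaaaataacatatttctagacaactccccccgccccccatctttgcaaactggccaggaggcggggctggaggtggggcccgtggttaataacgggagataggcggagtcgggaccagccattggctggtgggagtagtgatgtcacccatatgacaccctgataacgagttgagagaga
Sox6, chr7:115824711-115824960, minus strand: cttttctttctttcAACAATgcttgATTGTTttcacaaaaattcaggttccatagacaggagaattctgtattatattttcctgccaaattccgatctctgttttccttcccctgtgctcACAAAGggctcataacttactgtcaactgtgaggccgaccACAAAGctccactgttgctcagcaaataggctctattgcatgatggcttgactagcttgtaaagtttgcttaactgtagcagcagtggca
A match describes letters only, and which Sox6 start these cells used was not measured.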

How the data were processed

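Per the file headers, Agilent Feature Extraction 10.5.1.1 read both arrays of 1 slide and 1 scan and deposited, for each dye, spot mean intensities and local background medians, with processed intensities (background-subtracted, detrended, dye-normalized) and their log10 ratio. The authors also deposited a table of log2 ratios, whose scale and direction were read by setting it against the scanner values; the labels name limma for it. From the mean intensities, background was corrected by normexp (offset 50) and ratios normalized by loess within each array in limma 3.58.1 (R 4.3.3), control spots having weight 0. Outlier-marked spots (126 and 130 of 45018) were dropped and spots averaged per probe. Probes were kept that were well above background in 1 dye, Cy5 or Cy3, on both arrays, and were tested against 0 (lmFit, eBayes, 2-sided), with Benjamini-Hochberg adjustment over all 22731. With 1 residual degree of freedom, a probe's error was drawn in large part from all probes (prior SD 0.119 on 2.77 degrees of freedom). Between 53.9% and 56.2% of probes were well above background in an RNA, and 0 spots were saturated; the number of arrays limits the precision. Log2 ratios of different probes of a gene were kept apart, and a gene was read from its brightest tested probe. The code was tested on simulated data.

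The genes named are all 10 Sox genes with every probe, Sox9, other Sox genes detected in at least 1 RNA, and the 2 highest and 2 lowest tested genes of the partner and target lists. Other genes appear as values of the marker lists. The Sox genes, lists and tests were chosen with earlier results of these data known. Alternatives were median centring, the processed signals, the authors' values, an offset of 10, no background subtraction, other filters, scaled arrays, the methods' t-test, other readings of a gene and leaving out each array. Sequences were read with Python 3.11.15 and plotted values with matplotlib 3.10.9. Some items are not reported here.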

Additional observations from a re-analysis of the deposited data

How the results depend on the processing

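None of the 8 Sox genes changed direction under the alternatives that used both arrays. Sox11 ranged from 0.72 to 0.99 (adjusted p 0.0172 to 0.616, the methods' t-test included) and passed the adjusted threshold with median centring in place of loess only, at 0.99. Sox6 ranged from 0.37 to 2.72, the latter with the processed signals, which replace values at background. Sox2 ranged from 0.33 to 0.58, Sox15 from 0.20 to 0.41, Sox21 from 0.12 to 0.45, Sox7 from 0.17 to 0.45, Sox4 from 0.01 to 0.35 and Sox10 from -0.97 to -0.08. On the genotype array alone Sox7 was 0.00 and Sox4 0.12, and on the treatment array alone 0.52 and -0.07.

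Among all tested probes, limma called 2 after adjustment, 0 of them higher in Sox9-expressing RNA. This count was 522 (491 higher, 94.1%) with median centring, which left the median of all probes at 0.38 on the treatment array and 0.18 over both. It was 68 (50 higher, 73.5%) with the authors' values, and 0 with the processed signals, an offset of 10, no background subtraction, scaled arrays and the methods' t-test, which called 1925 without adjustment. Of Sox probes, 5 were called with median centring, all of Sox11. Between 5 and 12 had an unadjusted p under 0.05 over the alternatives, of 13 to 26 tested, where 8.47% to 19% of all probes did. The 5 came with the methods' t-test (of 17, against 8.47%). The 12 came with the processed signals (of 17, against 16.3%) and with no filter (of 26, against 13.7%). With the processed signals 1 Sox gene, Sox6, reached 2-fold on both arrays. The number of Sox genes higher in Sox9-deleted RNA was 0 with both dyes required above background, 2 with no filter (Sox10 and Sox5, the latter at background) and 2 when either array was left out (Sox10, with Sox4 or Sox7). Each ratio already pairs the 2 RNAs of its array. No further pairing was possible, because each array gives 1 ratio and there is 1 group of 2. With 2 arrays a small change in a Sox gene cannot be told from none, and a large one can stay uncalled. The deleted gene Sox9, at log2 ratios of 2.69 and 2.37 (probe at 2082), had a limma adjusted p of 0.0627. For Sox5, Sox8 and Sox10, signal over background limits what could be seen. The cause of these shifts was not tested.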
